A study of Mus musculus with 4 samples.

Results

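Across the 4 Hox gene clusters of day 3 embryoid bodies, 14 of the 9428 listed Flag-Sp5 peaks fell inside the cluster windows, and 10 of these 14 were in Hoxb. Hoxc and Hoxd held 2 peaks each and Hoxa held 0. Peaks were chosen by position alone: a peak belonged to a cluster when its midpoint lay in a fixed mm9 window, chr6:52090000-52220000 for Hoxa, chr11:96040000-96245000 for Hoxb, chr15:102740000-102880000 for Hoxc and chr2:74490000-74620000 for Hoxd. The windows stand for 38 Hox genes in all, 10 in Hoxa, 10 in Hoxb, 9 in Hoxc and 9 in Hoxd. No mm9 annotation was used here, so the bounds were not checked against gene models and no peak was assigned to a single gene.

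Hox genes encode homeodomain transcription factors that give cells their position along the body axis. Within a cluster the genes lie in the order in which they act from head to tail: low-numbered genes such as Hoxb1, which acts in the hindbrain, stand at the anterior end, and high-numbered genes such as Hoxa13 and Hoxd13, which act in the digits, or Hoxb13, in the tail, stand at the posterior end. In the early embryo the anterior genes are switched on first, and Wnt signalling takes part in this activation. Sp5 is a zinc-finger factor induced by Wnt signalling, and SP/KLF family members bind GC-rich boxes.

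The study mapped binding of a tagged Sp5 by chromatin immunoprecipitation and sequencing. All 4 libraries came from one engineered line, A2Lox.cre ES cells, freed of feeder fibroblasts, grown in suspension as embryoid bodies and given doxycycline from day 2 for 24 h, so that the labels describe all of them, input chromatin included, as expressing Flag-Sp5. The 2 Flag-Sp5 libraries were precipitated with the M2 antibody to the Flag tag (4 µg each), and the 2 inputs had no antibody. Whether libraries of one kind were made from separate cultures is not in the labels. The 1 deposited list, named for all 4 libraries, gives intervals without height, score or count, and how each library entered it is not stated. Depth is therefore unknown, no value below has a replicate error, and intervals and tests cover counting error of peaks only. Binding of endogenous Sp5 and expression of the Hox genes were not measured, and a precipitation from cells without the tag was not analysed here. A stretch without a listed peak is not a measurement of no binding, because only positions past the authors' threshold are listed.

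Promoter letters of the Hox genes are shown first, because GC boxes are the sites that SP factors are known to bind. The RefSeq promoter table (GRCm38.p6, from 250 bases before to 50 after a transcription start) held 22 of the 38 Hox genes. Hoxa4, Hoxb2, Hoxb3, Hoxb5, Hoxb6, Hoxb7, Hoxb9, Hoxb13, Hoxc5, Hoxc6, Hoxc8, Hoxc9, Hoxc10, Hoxc11, Hoxc12 and Hoxc13 were not matched. For each cluster, the matched gene with most GC boxes (GGGCGG on either strand, overlapping matches counted separately) is printed from 250 bases before the start up to the start, 5′ to 3′ on the gene's strand, with GC boxes in capitals. The Hoxa13 stretch is chr6:52260881-52261130 (minus strand), the Hoxb8 stretch chr11:96281655-96281904 (plus), the Hoxc4 stretch chr15:103034145-103034394 (plus) and the Hoxd13 stretch chr2:74667975-74668224 (plus), all on GRCm38.p6. These positions cannot be set against the mm9 peaks.
Hoxa13: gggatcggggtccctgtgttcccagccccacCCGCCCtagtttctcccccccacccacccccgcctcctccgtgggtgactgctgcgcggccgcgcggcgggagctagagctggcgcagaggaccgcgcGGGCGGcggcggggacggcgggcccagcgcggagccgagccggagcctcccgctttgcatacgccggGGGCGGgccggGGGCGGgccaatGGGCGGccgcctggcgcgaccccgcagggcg
Hoxb8: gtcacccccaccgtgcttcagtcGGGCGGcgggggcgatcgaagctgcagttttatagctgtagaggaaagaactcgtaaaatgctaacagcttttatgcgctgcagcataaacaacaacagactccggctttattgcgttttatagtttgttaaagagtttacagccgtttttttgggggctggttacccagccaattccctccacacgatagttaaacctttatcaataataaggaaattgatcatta
Hoxc4: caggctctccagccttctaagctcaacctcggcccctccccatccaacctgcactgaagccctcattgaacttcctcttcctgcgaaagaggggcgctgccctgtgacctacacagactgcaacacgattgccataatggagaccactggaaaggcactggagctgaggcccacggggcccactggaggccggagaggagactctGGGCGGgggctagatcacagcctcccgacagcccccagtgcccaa
Hoxd13: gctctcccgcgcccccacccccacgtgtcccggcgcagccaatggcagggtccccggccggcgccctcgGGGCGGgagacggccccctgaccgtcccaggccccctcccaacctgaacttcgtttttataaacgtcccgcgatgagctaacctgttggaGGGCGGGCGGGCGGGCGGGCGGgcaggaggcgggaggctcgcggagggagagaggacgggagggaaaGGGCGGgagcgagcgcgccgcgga

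The stretch before Hoxd13 held 7 GC boxes, 5 of them in one overlapping row, and that before Hoxa13 held 5. Hoxb8, which acts in the trunk, and Hoxc4, which acts in the neck, each had 1. Of the 22 matched genes, 10 (45.5%) had a GC box in the 300 base promoter, against 38.2% of 27025 genes in the table. By cluster these were 4 of 9 in Hoxa (Hoxa6, Hoxa9, Hoxa10 and Hoxa13), 1 of 3 in Hoxb, 1 of 1 in Hoxc and 4 of 9 in Hoxd (Hoxd1, Hoxd9, Hoxd11 and Hoxd13). The CACCC letters, another SP/KLF motif, which may overlap a GC box, were in 16 of the 22 (72.7%, against 59.8% of all genes). CTTTGA, the core of the sites bound by the Wnt effectors Tcf and Lef, was in 4 of the 22 (Hoxa10, Hoxa11, Hoxd8 and Hoxd12), 18.2% of the matched Hox genes and 18.2% of all genes. Both strands were searched, and a match of letters is not a bound site.

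The peaks are given by cluster, from the anterior to the posterior edge of each window; the edge that is anterior was taken from the order of the genes along the chromosome. In Hoxb the order runs from Hoxb1 to Hoxb13, with Skap1 the next protein-coding gene beyond the anterior end and Ttll6 beyond the posterior end. At 205 kb the Hoxb window was the longest of the 4.

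The most anterior Hoxb peak, chr11:96236143-96236489, lay 8.7 kb from the anterior edge of its window and was 347 bp wide. It was the widest of the 14 and wider than 92% of all listed peaks. The next 3, chr11:96225069-96225275, chr11:96213440-96213668 and chr11:96192260-96192449, lay 19.8, 31.4 and 52.6 kb from that edge, with widths of 207, 229 and 190 bp. The last of these first 4 peaks lay at 25.7% of the window's length, counted from the side of the low-numbered genes. The fifth, chr11:96161736-96161905 (170 bp), was 83.2 kb from the edge.

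Near the middle of Hoxb a close pair followed. Its peaks, chr11:96133994-96134150 (157 bp) and chr11:96132198-96132520 (323 bp), had midpoints 1.71 kb apart, the shortest distance in the 4 clusters. Posterior to the pair, chr11:96111827-96112008 (182 bp) lay 133.1 kb from the anterior edge. The last 2, chr11:96074853-96074997 (145 bp) and chr11:96054860-96055019 (160 bp), lay at 170.1 and 190.1 kb, towards the end on which Hoxb13 stands. Hoxb peaks therefore ran from 4.2% to 92.7% of the window's length and were not gathered at one end.

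In Hoxc both peaks were posterior to the middle of the window. The first, chr15:102770215-102770355, had the smallest width in the list, 141 bp, and the other, chr15:102762319-102762485, was 167 bp wide. They lay 109.7 and 117.6 kb from the anterior edge, on the side of Hoxc13, which acts in hair and nails, and away from Hoxc4. Anterior to them, the next listed peak was 129 kb away and outside the window.

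Hoxd showed the other arrangement. Its peaks, chr2:74588720-74589048 (329 bp) and chr2:74572827-74573002 (176 bp), lay 31.1 and 47.1 kb from the anterior edge, on the side of Hoxd1, with no listed peak posterior to the middle of the window, on the side where Hoxd11, Hoxd12 and Hoxd13, genes of limb patterning, are. Beyond the anterior edge, on the side of Mtx2, no peak was listed for 743 kb from the first Hoxd peak. Gaps of at least that length made up 9.22% of all gaps between neighbouring peaks in the list.

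In Hoxa, whose genes include Hoxa2 of the branchial arches and Hoxa11 of the forearm and kidney, the window fell inside a gap of 189 kb between listed peaks. The gap ran from chr6:52072331-52072506, 17.6 kb outside the anterior edge, to chr6:52261339-52261547, 41.4 kb outside the posterior edge, on the side of Evx1. A gap this long is common: 37.4% of gaps in the list and 45.8% on chromosome 6 were at least as long.

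**Figure D1:**
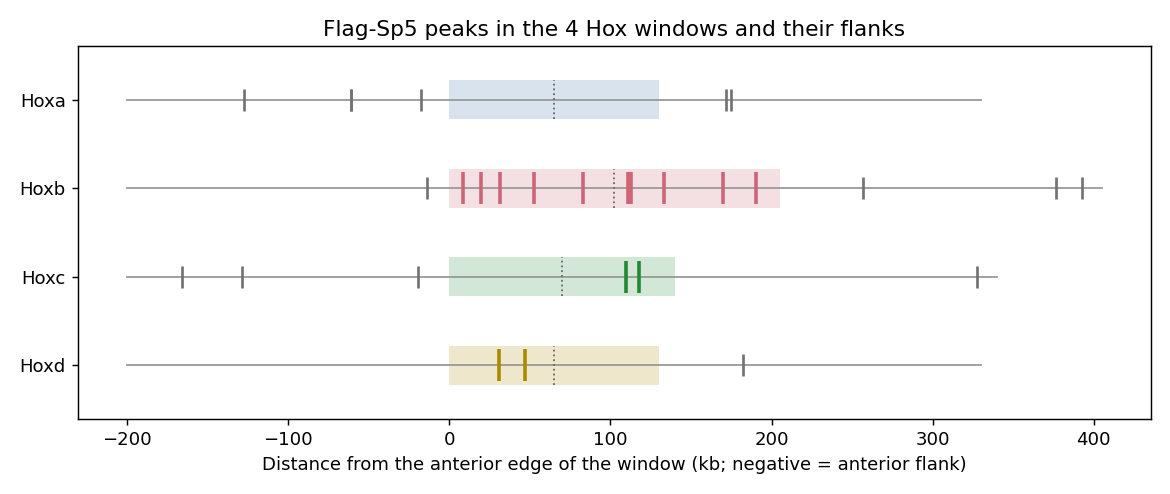
Position of listed Flag-Sp5 peaks (ticks) in the 4 Hox windows (shaded, coloured ticks) and in 200 kb flanks on each side (line, grey ticks), in kb from the anterior edge, with the middle of each window dotted. Hoxb holds 10 peaks along its length, Hoxc and Hoxd 2 each, on opposite sides of the middle, and Hoxa 0; 2 of the 6 Hoxa flank peaks lie so close together that their ticks merge.

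The Hoxb window was denser in listed peaks than its flanks. It held 10 peaks in 205 kb, 4.88 per 100 kb (exact 95% Poisson interval 2.34 to 8.97), and its flanks, 200 kb on each side, held 4, or 1 per 100 kb (0.272 to 2.56). The ratio was 4.88 (exact interval 1.41 to 21.3; two-sided exact conditional binomial test, p = 0.00768, adjusted over the 4 clusters p = 0.0307). The density of chromosome 11, counted between its first and last peak, would give 1.18 peaks in a window of this length. This test, like those over all clusters below, takes peaks as independent, which neighbouring peaks are not, so the p-values are too small. The windows were also chosen with earlier results of these data known, which the p-values do not allow for. The call was lost with flanks of 100 kb on each side (adjusted exact p = 0.155, at the same ratio), with the bounds moved inward by 10 kb (0.0678), against the posterior flank alone (0.370) and with only those peaks wider than the median of the list (0.192, at a ratio of 7.80 from fewer peaks).

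As background, windows of the same length were laid end to end over all chromosomes between the first and last peak. At least 10 peaks were found in 7 of 12486 windows of 205 kb (0.0561%). On chromosome 11 none of 577 did (0%), since this tiling divides the Hoxb window, and the fullest held 9. With the tiling shifted so that windows began at the former middles, 11 of 12488 (0.0881%) held at least 10, and the single such window on chromosome 11 contained all 10 Hoxb peaks.

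**Figure D2:**
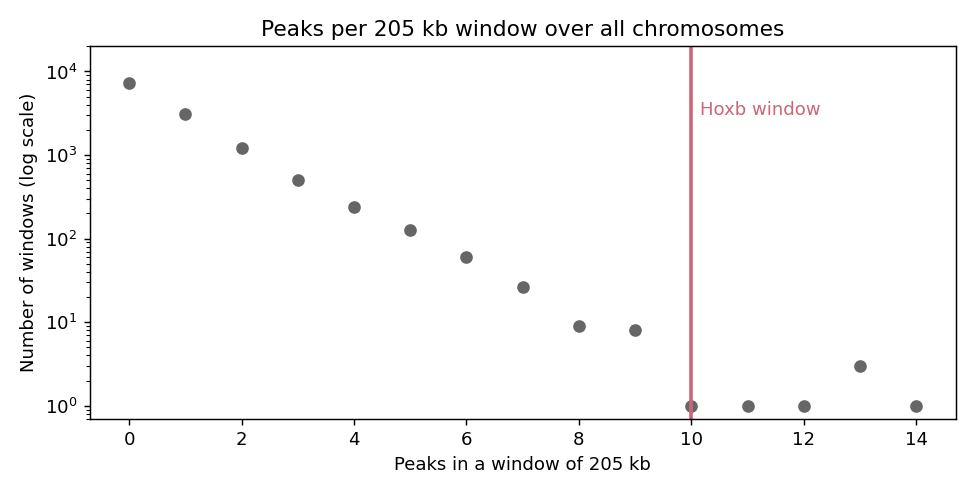
Number of 205 kb windows over all chromosomes (vertical axis, log scale) by the number of listed peaks they hold (horizontal axis), with the Hoxb window marked by the line at 10 peaks. Of 12486 windows, 7 lie at or to the right of the line.

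The other clusters did not differ from their flanks beyond counting error, but with at most 2 peaks each a difference could be missed. Hoxa had 0 peaks in 130 kb and 6 in its flanks, of which 4 were anterior and 2 posterior (ratio 0, exact interval 0 to 2.61; adjusted exact p = 0.462). Windows of 130 kb without a peak were common, 69.1% of 19699 over all chromosomes and 69.6% on chromosome 6, so the empty Hoxa window is near the background. Hoxc had 2 peaks in 140 kb, 1.43 per 100 kb (exact Poisson interval 0.173 to 5.16), against 4 in its flanks (ratio 1.43, exact interval 0.129 to 9.97; adjusted exact p = 0.653). Of 140 kb windows, 11.3% held at least 2 peaks, and 12.8% of those on chromosome 15 did. Hoxd had 2 peaks in 130 kb, 1.54 per 100 kb (0.186 to 5.56), against 1 in its flanks (ratio 6.15, exact interval 0.320 to 363; adjusted exact p = 0.302). Of 130 kb windows, 10.2% held at least 2 peaks, and 12.3% of those on chromosome 2 did. The Hoxd ratio was above that of Hoxb (4.88), but its interval reached below 1. With flanks of 500 kb on each side the ratio was 15.4 for Hoxd (adjusted exact p = 0.0733). It was then 1.10 for Hoxc and 0 for Hoxa (adjusted exact p = 0.706 for both). For Hoxb the ratio stayed at 4.88 with these longer flanks (adjusted exact p = 0.00283, again with peaks taken as independent).

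Over the 4 clusters the windows held 14 peaks in 605 kb, 2.31 per 100 kb (exact Poisson interval 1.27 to 3.88), and the flanks 15, or 0.938 per 100 kb (0.525 to 1.55). The ratio was 2.47 (exact interval 1.10 to 5.48; two-sided exact conditional binomial test, p = 0.0198). This difference rested on Hoxb: the other 3 windows held 4 peaks in 400 kb and their flanks 11 in 1200 kb, a ratio of 1.09 (exact interval 0.253 to 3.68; exact p = 1). It also missed the threshold without Hoxd (exact p = 0.0511), against the anterior flanks alone (0.0554), with bounds moved outward by 10 kb (0.0701), with flanks of 100 kb (0.0945) and with only the wider peaks (0.330).

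Listed peaks were not spread over the clusters in proportion to length, by a test that also takes peaks as independent. In proportion to length, Hoxb would hold 4.74 of the 14 peaks, Hoxc 3.24, and Hoxa and Hoxd 3.01 each, against 10, 2, 0 and 2 listed (exact multinomial test over all outcomes, p = 0.0194). The call was lost when Hoxb (exact p = 0.556) or Hoxa (exact p = 0.107) was left out and with only the wider peaks (exact p = 0.116).

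**Figure D3:**
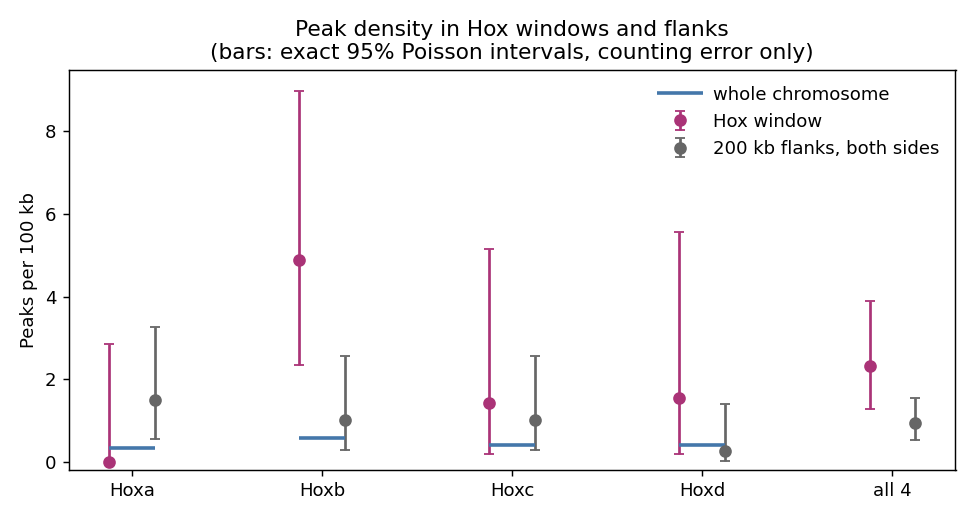
Listed peaks per 100 kb in each Hox window, in its 200 kb flanks and over its whole chromosome (horizontal marks), with exact 95% Poisson intervals as bars; "all 4" pools the clusters. The Hoxb window stands at 4.88 and its flanks at 1, while the intervals of window and flanks overlap widely in Hoxa, Hoxc and Hoxd.

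Over the 4 clusters, 7 peaks lay anterior and 7 posterior to the middle of their windows (share anterior 50%, exact Clopper-Pearson interval 23.0 to 77.0%; two-sided exact binomial test, p = 1). Hoxb had 5 on each side. The sides were cut at the middle of the window, not between genes, and genes were not placed in the windows. On GRCm38.p6 the promoters of Hoxb1 (chr11:96365508-96365807) and Hoxb8 (chr11:96281655-96281954) lie closer together than the 102.5 kb of 1 Hoxb side. Equal counts therefore do not compare low-numbered with high-numbered genes. Hoxc had both peaks posterior and Hoxd both anterior, but with 2 peaks the exact test cannot give a p below 0.5. Over the 4 clusters the exact interval of the ratio of anterior to posterior peaks ran from 0.299 to 3.34.

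Spacing inside the windows restates their density in part, since a distance longer than a window cannot occur inside it. The 9 distances between neighbouring Hoxb midpoints ran from 1.71 to 37.0 kb with a median of 20.4 kb, where the median over chromosome 11 was 83.8 kb and that over the list 114 kb. A distance no longer than the longest in Hoxb was found for 27.7% of all neighbouring pairs in the list. The Hoxc pair was 7.88 kb apart and the Hoxd pair 16.0 kb. Distances that crossed a window edge or the whole window reached 66.6 kb at Hoxb, 189 kb at Hoxa, 210 kb at Hoxc and 743 kb at Hoxd. Of the 14 peaks, 4 had another midpoint within 10 kb, the close Hoxb pair and the Hoxc pair, near the 23.8% of the whole list: the Hoxb peaks were mostly more than 10 kb apart.

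The peaks in the Hox windows were of ordinary width. Their median was 179 bp, with a range of 141 to 347 bp, against 189 bp for the 15 flank peaks and 195 bp for the list. Of the 14, 5 were wider than the list median, which 49.6% of all peaks were, and 1 had the smallest width, as did 7.18% of all peaks. The wider ones were the 3 most anterior Hoxb peaks, 1 of the close Hoxb pair and the more anterior Hoxd peak.

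**Figure D4:**
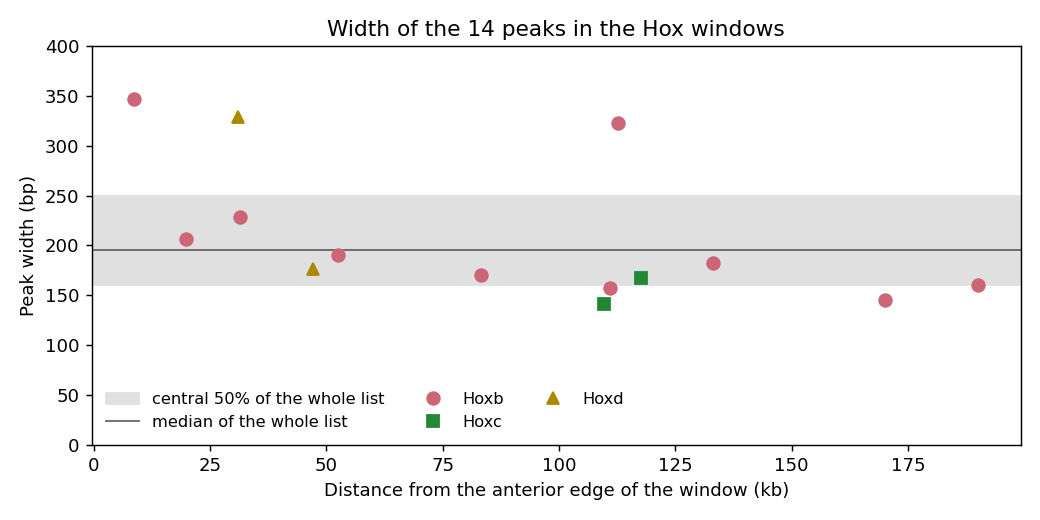
Width in bp of the 14 peaks in the Hox windows against distance in kb from the anterior edge of their window, with the central 50% of the whole list shaded and its median as a line. Peaks of 347, 323 and 329 bp stand above the shaded band, and the rest lie in it or below it.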

How the data were processed

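The deposited data used here are 1 peak list of the whole series with 3 columns, chromosome, start and end, and no other value. Bowtie, Picard, MACS2 and HOMER are the tools, and mm9 the build, listed per the submitters' processing notes, which the labels carry without versions or roles; the threshold and the way libraries were pooled are not stated there. Starts were counted from 0 in the deposited file and are printed from 1. The Hox windows and gene lists were chosen with earlier results of these data known. All peaks inside the windows were described, as the rule for naming asked. Densities have exact Poisson intervals, and ratios have exact conditional binomial intervals and two-sided tests, at 95% and a threshold of 0.05, with Benjamini-Hochberg adjustment over clusters. The tests of windows against flanks and among windows were run on simulated counts of independent peaks. Those simulations do not cover neighbouring peaks that depend on each other. Python 3.11.15, scipy 1.17.1 and pandas 2.3.3 were used. Gene order, without positions, came from the RefSeq table of GRCm38.p6, and promoters from that build. Distances of peaks to genes and motifs in the peaks, planned only for the case that an mm9 genome was at hand, were not analysed here.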

Additional observations from a re-analysis of the deposited data

How the results depend on the processing

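Of 101 alternative values, all set with the main analysis, 82 kept their side of the threshold or moved within the spread. Moves from or to 0 count here, and most of the 82 concern results never called. Calls were kept in 7 and lost in 6 for pooled windows, 5 and 4 for Hoxb, and 6 and 3 among clusters. With Hox windows and flanks pooled, the difference in peaks per 100 kb (1.38) lost its call at 0.389 with only peaks wider than the list median, 1.04 with bounds moved outward by 10 kb, 1.19 with flanks of 100 kb, 1.31 against the anterior flank, 0.0833 without Hoxb and 1.36 without Hoxd. The difference of Hoxb (3.88) lost its call at 1.7 with wider peaks and 3.61 with bounds moved inward. The call was also lost at 3.88 with flanks of 100 kb and 3.38 against the posterior flank. In that order, the ratios of window to flanks were 7.80, 3.89, 4.88 and 3.25. Shorter or single flanks and the wider peaks leave fewer peaks to compare by construction. Against the anterior flank alone, which held 1 peak, Hoxb kept its call (ratio 9.76, adjusted exact p = 0.0471). The posterior flank held 3 peaks. Why calls were lost was not tested. Hoxc, never called, turned to -0.5 with wider peaks and -0.0714 against the anterior flank. The exact p for differences among clusters rose from 0.0194 to 0.116 with wider peaks, 0.107 without Hoxa and 0.556 without Hoxb. With wider peaks, the share of equally long windows with no peak was 82.1% for Hoxa and 81% for Hoxc, with at least 4 peaks 0.946% for Hoxb, and with at least 1 peak 17.9% for Hoxd. Merging peaks less than 500 bp apart and taking overlaps of at least 1 bp in place of midpoints changed no call. The anterior and posterior counts passed the threshold under no alternative tried, but the pooled difference, anterior minus posterior, moved from 0 to 3 with wider peaks, -1 with bounds moved inward, 2 without Hoxc and -2 without Hoxd. The median distance between neighbours fell from 20 to 11.6 kb with wider peaks, where only the 4 wider Hoxb peaks gave distances. Leaving out peaks can only lengthen or remove a distance, so this fall does not show that wider peaks lie closer together. Hoxc had no peak left to split among the wider ones, and Hoxa never had one. No paired analysis was possible because libraries are not separated in the peak list, which also prevented leaving out a replicate.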

Other observations

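The Hoxb peaks joined with the nearest anterior flank peak into one run in which no neighbouring midpoints were more than 40 kb apart, a limit chosen after the values were seen. The run held 11 peaks from chr11:96054860-96258929, a span of 204 kb, so it went on past the anterior window edge towards Skap1. Cut by the same limit, the whole list fell into 6691 runs, single peaks included, of which 6 (0.0897%) held 11 peaks or more, and the longest held 15. These 6 runs held 79 peaks, 0.838% of the list. The limit is just above the longest distance inside the Hoxb window, 37.0 kb. The Hoxb run was the only one of that length on chromosome 11. These counts describe the list and were not tested.

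The flank peaks are given by side. Beyond Hoxa, 4 flank peaks lay on the anterior side, towards Skap2, and 2 on the posterior side, towards Evx1. Beyond Hoxb there were 1 anterior and 3 posterior, beyond Hoxc 3 anterior and 1 posterior, and beyond Hoxd 0 anterior and 1 posterior, towards Evx2. The numbers are too small to compare sides, and no test was run.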
